A study of Rattus norvegicus with 6 samples.

Results

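Acta2, Tagln and Vim encode cytoskeletal proteins used to describe the state of cultured fibroblasts. Their 3 rows were taken by Ensembl gene ID from a table of 27108 rat genes: ENSRNOG00000058039 for Acta2, ENSRNOG00000017628 for Tagln and ENSRNOG00000018087 for Vim. All 3 were present and passed the low count filter, as did 12049 genes in all. RNA was sequenced from fibroblasts of the ventricles of neonatal rats, kept for 48 h on glass with a fibronectin coat (UT, 3 libraries) or on glass with fibronectin and fibrils of transthyretin (TTR, 3 libraries). Fibronectin was therefore common to both groups. The sources used here state neither the strain nor the number of animals nor any pooling of cells. The p-values measure only the spread between these libraries, which may be technical. The series asks how the fibrils alter the form, function and gene expression of the fibroblasts.

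Fibroblasts that turn into myofibroblasts assemble contractile actin bundles and pull on the matrix around them. Acta2 encodes smooth muscle alpha-actin, the actin isoform that defines the myofibroblast, and Tagln encodes transgelin (SM22-alpha), a protein that binds and bundles actin filaments in smooth muscle cells and myofibroblasts. Both genes are known targets of serum response factor, which binds a DNA element called the CArG box and is switched on by actin assembly, stiff substrates and TGF-beta. Vim encodes vimentin, the intermediate filament protein of mesenchymal cells, which fibroblasts make whether or not they are contractile. In cultured heart fibroblasts, stiff surfaces such as glass are known to favour the myofibroblast state.

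The 250 bases before the annotated start are shown for Acta2 and Vim, to set the contractile gene, whose level moved with that of Tagln across the libraries, beside the general mesenchymal gene. They come from the RefSeq annotation of rat build GRCr8, which is not the build of the counts, and 2 of the 3 genes were matched by symbol. Tagln had no entry. Capitals mark CATTCC (the MCAT element bound by TEAD factors), the TATA-like motif TATANAA, and CArG boxes with 1 letter of the core other than A or T, all searched on both strands. The Acta2 sequence is chr1:241172504-241172753 on the minus strand, and the Vim sequence is chr17:81577011-81577260 on the plus strand.
Acta2: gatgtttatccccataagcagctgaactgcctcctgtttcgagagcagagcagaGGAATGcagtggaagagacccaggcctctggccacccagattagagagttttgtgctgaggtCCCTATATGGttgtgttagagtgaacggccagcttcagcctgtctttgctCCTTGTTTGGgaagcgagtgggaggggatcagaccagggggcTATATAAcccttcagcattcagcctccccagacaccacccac
Vim: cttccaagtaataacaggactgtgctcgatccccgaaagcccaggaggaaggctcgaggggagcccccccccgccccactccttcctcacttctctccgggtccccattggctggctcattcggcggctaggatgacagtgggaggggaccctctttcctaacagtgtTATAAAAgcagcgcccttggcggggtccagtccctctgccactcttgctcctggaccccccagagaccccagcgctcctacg

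In the Acta2 window, CArG-like elements began at -134 (CCCTATATGG) and -84 (CCTTGTTTGG), counted from the start. The MCAT element lay on the opposite strand at -196 and the TATA-like motif at -42. No exact CArG box was found in either window, and the Vim window held only the TATA-like motif, at -82. Of 33469 rat promoter windows of the same length, 6.84% held a CArG box with 1 such mismatch and 1.50% held an exact one. CATTCC was present in 12.1% and TATANAA in 11.6%. These are matches of letters, and binding was not measured. The motifs were chosen after the data were seen, and Tagln had no window. The contrast of the 2 windows therefore does not test why Acta2 and Tagln moved together.

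Total counts were 6897626 to 7262313 in the UT libraries and 6574199 to 11774729 in the TTR libraries. Levels are given as CPM, the count of a gene relative to the total of its library, after scaling the totals by TMM factors between 0.981 and 1.02. They are not divided by gene length, so the levels of different genes are not compared here. The table names no genes by symbol, so markers of cardiomyocytes, endothelial cells, smooth muscle cells and macrophages, and other genes of the contractile programme, were not analysed here. The labelled cell type was therefore not checked. Vim had at least 48026 counts in every library, which does not tell fibroblasts from other cells that make vimentin. Acta2 and Tagln are also made by smooth muscle cells. In bulk RNA, fewer cells of a type and less RNA per cell cannot be told apart.

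Acta2 was abundant on both substrates. Its level was 2440, 2560 and 3655 CPM in UT replicates 1, 2 and 3, and 2918, 2152 and 1819 CPM in TTR replicates 1, 2 and 3. These rest on 12133 to 33867 counts per library, for which counting error alone is at most 0.908% of the value. UT replicate 3 was the highest and TTR replicate 3 the lowest, but TTR replicate 1 lay above UT replicates 1 and 2, so the groups overlapped.

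Acta2 averaged 2885 ± 669 CPM in the UT libraries and 2296 ± 564 CPM in the TTR libraries (SD, n = 3). The log2 difference, TTR minus UT, was -0.33 (SE 0.21), a ratio of 0.796 with a 95% interval of 0.574 to 1.10. It did not pass the edgeR quasi-likelihood test (adjusted p = 0.999 by Benjamini-Hochberg over all 12049 genes). In that test 0.0083% of the tested genes were called, namely 1 gene, and at an unadjusted p under 0.05 the share was 2.37%. The interval thus includes no change and a fall to 0.574 of the UT level, but no rise beyond 1.10 times.

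Tagln, the actin-bundling partner in the contractile programme, showed the same order of libraries at the top. It stood at 2028, 2312 and 3097 CPM in UT replicates 1, 2 and 3, and at 2611, 1787 and 1797 CPM in TTR replicates 1, 2 and 3. UT replicate 3 and TTR replicate 1 were again the highest of their groups, and the groups overlapped because TTR replicate 1 exceeded UT replicates 1 and 2. TTR replicates 2 and 3 were nearly equal and were the lowest of all 6.

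The means of Tagln were 2479 ± 553 CPM for UT and 2065 ± 473 CPM for TTR (SD, n = 3). The log2 difference was -0.26 (SE 0.20), a ratio of 0.833 with a 95% interval of 0.610 to 1.14, and it did not pass the test (edgeR quasi-likelihood test, adjusted p = 0.999). Its counts ran from 11988 to 30306, with a counting error of at most 0.913%.

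Vim varied little. It stood at 7021, 8218 and 7929 CPM in UT replicates 1, 2 and 3, and at 7359, 8200 and 7198 CPM in TTR replicates 1, 2 and 3, with 48026 to 85411 counts per library. The replicate numbered 2 was the highest in both groups, and the ranges of the groups overlapped almost entirely. UT averaged 7723 ± 625 CPM and TTR averaged 7586 ± 538 CPM (SD, n = 3). The log2 difference of -0.03 (SE 0.12) corresponds to a ratio of 0.982 with a 95% interval of 0.815 to 1.18 (edgeR quasi-likelihood test, adjusted p = 0.999). The interval leaves out a change of Vim larger than that in either direction between these groups of libraries. The plot of levels by library shows all values.

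**Figure D1:**
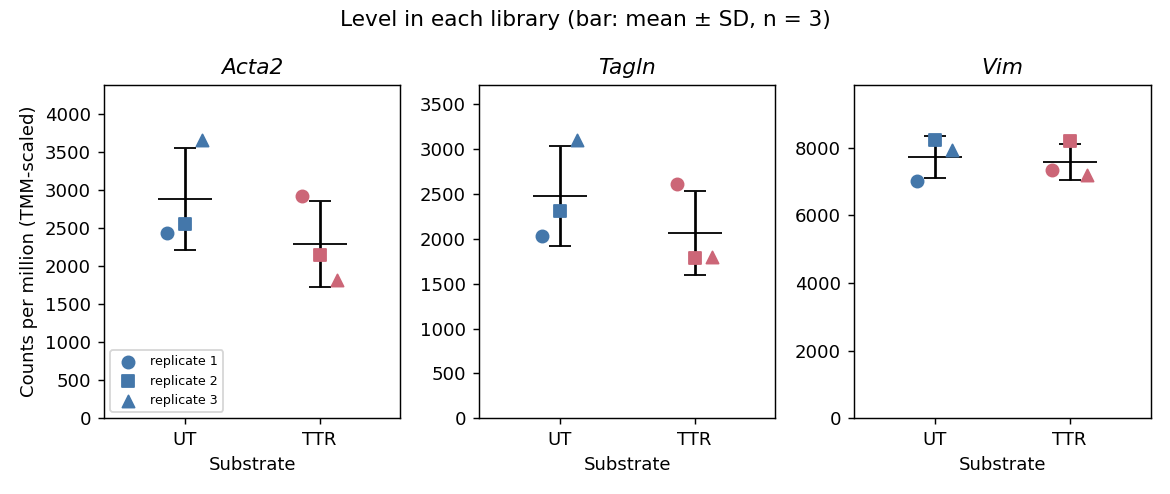
Level of Acta2, Tagln and Vim in CPM (y axis, from 0, with a separate scale for each gene) on UT and TTR substrates (x axis). Points are the 3 libraries of a group, with the replicate number as the symbol, and bars are the mean ± SD; UT replicate 3 and TTR replicate 1 are the highest of their groups for Acta2 and Tagln, and the groups overlap for all 3 genes.

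None of the 3 genes separated the groups. Across the tested genes, all TTR libraries lay below all UT libraries for 3.10% and above them for 3.75%. The 3 log2 differences were all negative, with a median of -0.26, where the median over all tested genes was -0.0038 and the median size of the difference was 0.099. A median below 0 means that the majority of tested genes were negative too. Acta2 and Tagln varied together and Vim was near 0, so the 3 signs are not separate results. Acta2 ranked 957th and Tagln 1563rd of 12049 by p, and Vim ranked 9553rd.

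The spread within groups was wider for the contractile genes than for Vim in both groups, which was not tested. The coefficient of variation of Acta2 was 23.2% on UT and 24.6% on TTR, and that of Tagln was 22.3% and 22.9%. For Vim it was 8.09% and 7.09%. Counting error was under 1% for each gene in each library, so nearly all of this spread lay beyond counting. Among the 2156 genes of at least 100 CPM, 92.4% had a smaller SD of log2 CPM within groups than Acta2 (0.33) and 90.7% a smaller one than Tagln (0.31), while 27.2% had a smaller one than Vim (0.11). The median of these genes was 0.16.

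The sizes of the differences also stood toward the upper end of abundant genes for Acta2 and Tagln. Of the same 2156 genes, 98.2% had a smaller log2 difference in size than Acta2 and 96.9% a smaller one than Tagln, against 21.0% for Vim. This is a description of estimates, which are wider for genes with a wide spread, as the plot of difference against spread shows.

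**Figure D2:**
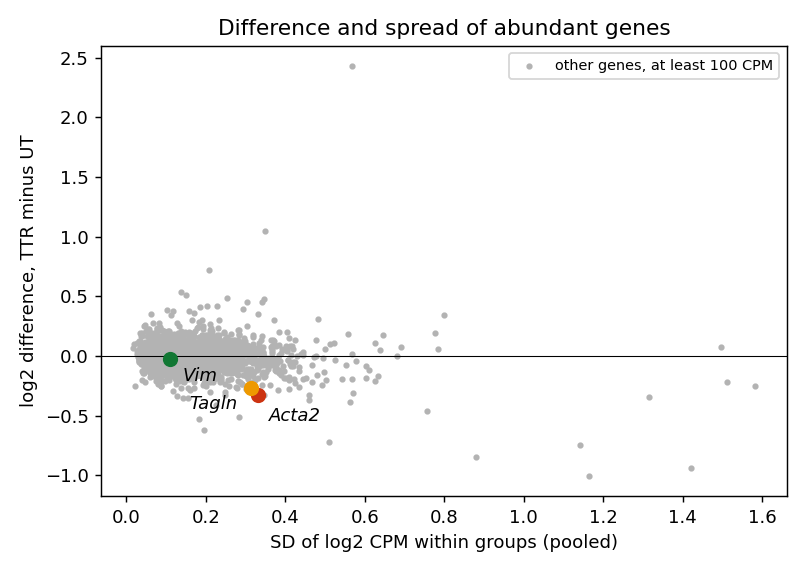
Log2 difference, TTR minus UT (y axis), against the SD of log2 CPM within groups (x axis) for 2156 genes of at least 100 CPM, each point 1 gene. Acta2 (SD 0.33) and Tagln (SD 0.31) lie to the right of and below Vim (SD 0.11), which sits near 0.

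Acta2 and Tagln varied together. Over the 6 libraries their log2 CPM correlated at Pearson r = 0.963 (exact permutation p = 0.00556, adjusted p = 0.0167 over 3 pairs of genes) and Spearman rho = 0.943 (exact permutation p = 0.0167, adjusted p = 0.050). Without UT replicate 3 and TTR replicate 3, the libraries farthest from the median of Acta2, r was 0.984. Both genes lay on the same side of their group mean in 6 of 6 libraries, above it in UT replicate 3 and TTR replicate 1 and below it in the other 4. Deviations sum to 0 within a group, so these signs are not independent, and they restate the correlation. The 6 points share their libraries and scaling, and 3 libraries per group are too few for a correlation within a group. The permutation treats the 6 libraries as exchangeable across both groups, and r includes the difference between the groups. The labels do not say whether the libraries are independent.

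Vim did not share this pattern at a level these libraries could show. Its r was 0.245 with Acta2 (exact permutation p = 0.633, adjusted p = 0.728; Spearman rho = 0.257, exact permutation p = 0.658, adjusted p = 0.919) and 0.187 with Tagln (exact permutation p = 0.728, adjusted p = 0.728; Spearman rho = 0.0857, exact permutation p = 0.919, adjusted p = 0.919). Without the 2 libraries farthest from the median on the x axis, these were -0.423 and 0.429. Vim was on the same side of its group mean as Acta2 in 3 of 6 libraries. Whether the correlations with Vim differ from that between Acta2 and Tagln was not tested.

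The ratio of 2 genes within a library does not depend on library scaling or, when compared between libraries, on gene length. The count of Acta2 divided by that of Vim was 0.348, 0.312 and 0.461 in UT replicates 1, 2 and 3 and 0.397, 0.262 and 0.253 in TTR replicates 1, 2 and 3. The lowest values were those of TTR replicates 2 and 3, and TTR replicate 1 exceeded UT replicates 1 and 2. On the log2 scale the ratio was -1.44 ± 0.29 on UT and -1.75 ± 0.36 on TTR (SD, n = 3), a difference of -0.31 (exact permutation p = 0.3, two-sided, adjusted p = 0.6 over 3 ratios).

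For Tagln over Vim the ratio was 0.289, 0.281 and 0.391 in UT replicates 1, 2 and 3, and 0.355, 0.218 and 0.250 in TTR replicates 1, 2 and 3. The libraries fell in the same arrangement, with UT replicate 3 and TTR replicate 1 highest. The log2 difference between the groups was -0.24 (exact permutation p = 0.4, adjusted p = 0.6). With 3 against 3 libraries the smallest possible p is 0.1.

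The ratio of Acta2 to Tagln varied less than either ratio to Vim, a difference in spread that was not tested. It was 1.20, 1.11 and 1.18 in UT replicates 1, 2 and 3, and 1.12, 1.20 and 1.01 in TTR replicates 1, 2 and 3. TTR replicate 3 was the lowest and the other 5 lay within 1.11 to 1.20. The log2 difference between the groups was -0.07 (exact permutation p = 0.7, adjusted p = 0.7), with an SD of 0.063 on UT and 0.13 on TTR.

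The libraries with the highest Acta2 and Tagln also lay together at one end of the main axis of variation of the other genes. The first principal component of the other 12046 tested genes, with 39.6% of the variance, gave scores of -18.5, -2.52 and 23.0 to UT replicates 1, 2 and 3 and of 25.5, 2.68 and -30.2 to TTR replicates 1, 2 and 3. Along it Acta2 had r = 0.833 (exact permutation p = 0.0389, adjusted p = 0.104 over 3 genes; rho = 0.771, exact permutation p = 0.103, adjusted p = 0.308). Tagln had r = 0.793 (exact permutation p = 0.0694, adjusted p = 0.104; rho = 0.600, exact permutation p = 0.242, adjusted p = 0.363), and Vim r = 0.428 (exact permutation p = 0.372, adjusted p = 0.372; rho = 0.371, exact permutation p = 0.497, adjusted p = 0.497). None passed after adjustment. Without TTR replicates 1 and 3, the ends of the component, r was 0.725 for Acta2, 0.708 for Tagln and 0.606 for Vim.

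**Figure D3:**
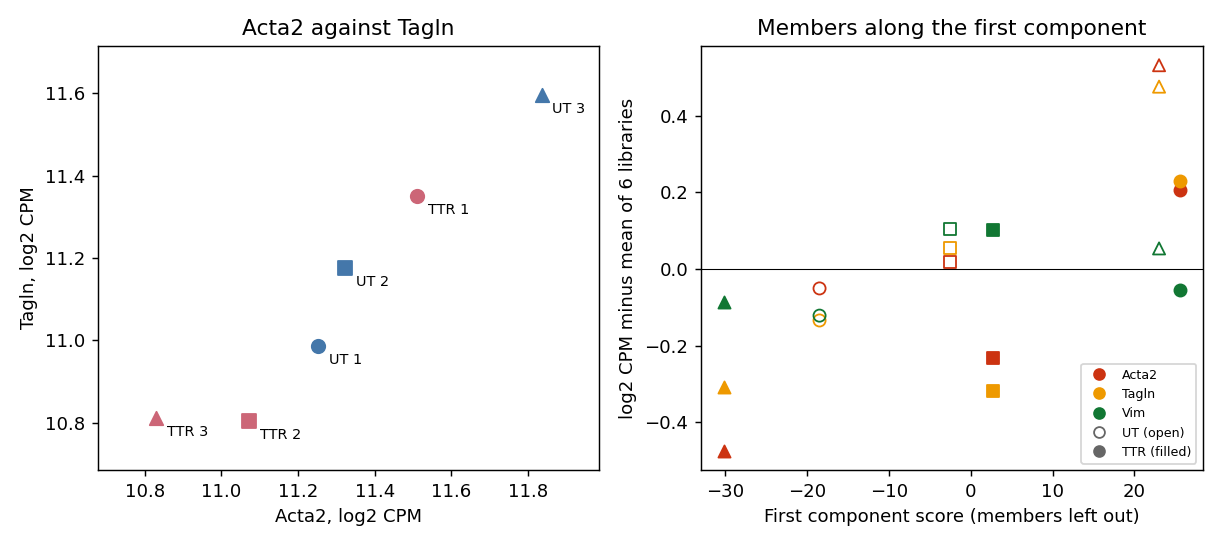
Left, log2 CPM of Tagln (y axis) against Acta2 (x axis) in the 6 libraries, which lie close to 1 line (r = 0.963). Right, log2 CPM of each gene minus its mean over the 6 libraries (y axis) against the score on the first component computed without these genes (x axis, open for UT and filled for TTR, circles, squares and triangles for replicates 1, 2 and 3); UT replicate 3 and TTR replicate 1 lie at the right with high Acta2 and Tagln.

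The other genes closest to each member were sought among 8853 tested genes with a mean of at least 10 CPM, by Pearson r of log2 CPM over the 6 libraries. Tagln was 35th in likeness to Acta2, and Acta2 was 31st in likeness to Tagln. Vim stood at 3651 and 3846 in those rankings. At r above 0.9 there were 206 genes for Acta2 (2.33%), 154 for Tagln (1.74%) and 105 for Vim (1.19%). The closest gene to Acta2 was ENSRNOG00000016419 (r = 0.998), at 339, 345 and 386 CPM in UT replicates 1 to 3 and 355, 326 and 306 CPM in TTR replicates 1 to 3. It had the same order of libraries as Acta2 over a narrower range. ENSRNOG00000014785 was closest to Tagln (r = 0.995), between 71.3 and 89.0 CPM, and ENSRNOG00000009928 to Vim (r = 0.988), between 10.9 and 15.8 CPM. Each of these genes was picked for its highest r in these same 6 libraries. A high r and a like order of libraries therefore follow from the choice and show no shared regulation.

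Single libraries set the size of the estimates for Acta2 and Tagln. Without UT replicate 3 the log2 difference of Acta2 was -0.12, without TTR replicate 3 it was -0.19, and without TTR replicate 1 it was -0.54. For Tagln these values were -0.07, -0.18 and -0.47, and without TTR replicate 2 the value was -0.17. None of them passed the adjusted threshold. Among these fits with 1 library left out, the smallest unadjusted p of the edgeR quasi-likelihood test came without TTR replicate 1, at 0.0247 for Acta2 and 0.0360 for Tagln (adjusted p = 1.00 for each).

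A fit with 2 surrogate variables, which are hidden factors estimated from the same counts, was added after the data were seen and gave a different call for Acta2. The log2 difference moved from -0.33 to -0.36, the SE narrowed from 0.21 to 0.064, and the adjusted p of the edgeR quasi-likelihood test was 0.00389. Both the SE and the p treat the estimated factors as known covariates, though Acta2 was among the genes that gave them. They leave out the error of that estimate, with only 6 libraries to fit. In that fit 1.29% of the tested genes were called, and 0.473% as lower on TTR. Tagln stood at -0.30 (SE 0.076, adjusted p = 0.0709) and Vim at -0.01 (SE 0.064, adjusted p = 0.978). With 1 surrogate variable, where 0.224% of genes were called, no member passed, at adjusted p = 0.529 for Acta2 and 0.998 for Tagln. The call of Acta2 therefore depends on removing these factors, whose source is not recorded in the labels, and it is not independent evidence. Deviations from the group means over the tested genes were also correlated between libraries of different groups. The positive values were 0.579 for UT replicate 3 with TTR replicate 1, 0.519 for UT replicate 1 with TTR replicate 3 and 0.435 for UT replicate 2 with TTR replicate 2. The other pairs ran from -0.401 to -0.094. Deviations sum to 0 over the 3 libraries of a group, so some pairs must be positive and others negative. The labels do not pair UT with TTR libraries, and the part of any such pairs in the overlap of the groups was not tested. The plot of estimates by setting shows the narrowing of the error beside estimates of similar size.

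**Figure D4:**
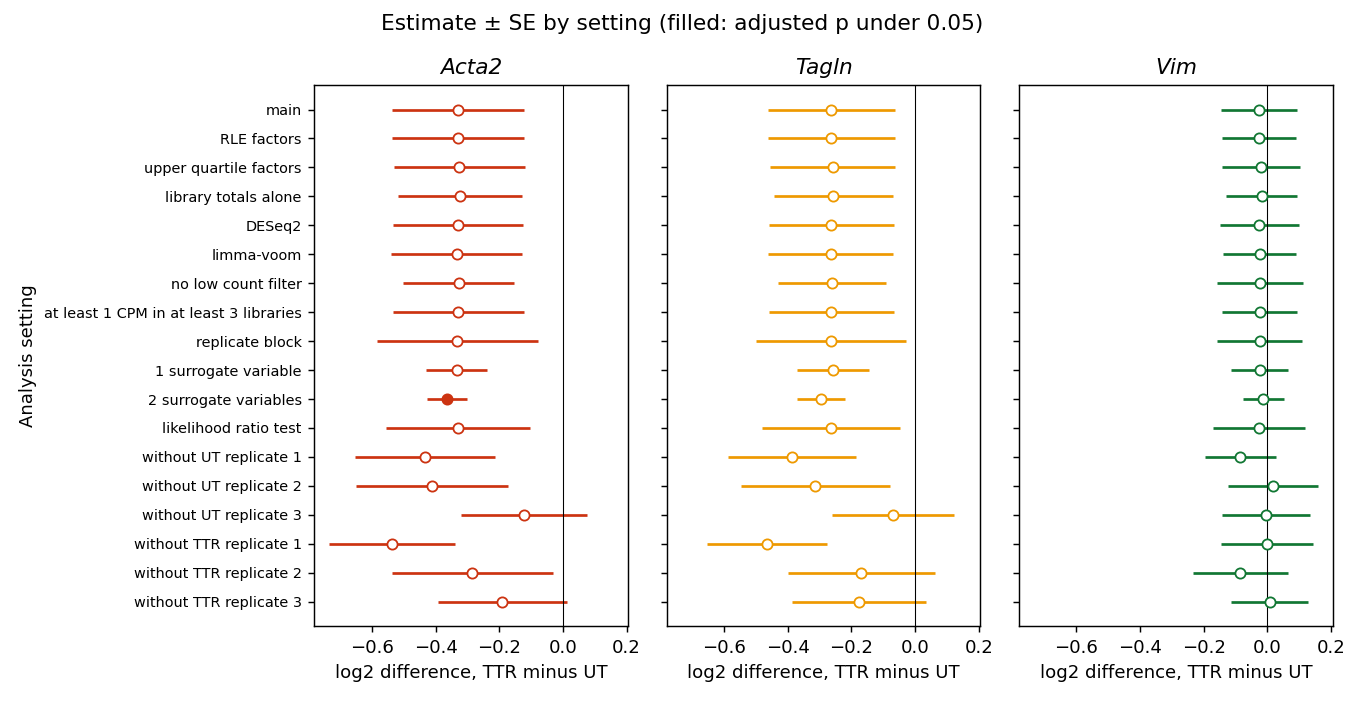
Log2 difference, TTR minus UT (x axis), with its SE for Acta2, Tagln and Vim under each analysis setting (y axis), where main is the edgeR quasi-likelihood test on all 6 libraries. Filled points have an adjusted p under 0.05, which is the case only for Acta2 with 2 surrogate variables; estimates of Acta2 and Tagln are below 0 in every setting shown, and Vim stays between -0.09 and 0.02.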

How the data were processed

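The authors deposited a table of raw counts per gene, whole numbers without normalization. STAR, featureCounts, edgeR and build rn6 are named in the submitters' processing notes, without versions. For the annotation, the strand setting and the treatment of multi-mapping reads nothing is stated. Acta2 belongs to the actin family, whose near-identical coding sequences may split or lose reads, so its level is uncertain to that extent. The table pairs no ID with a symbol, and the pairing for the 3 genes was taken as given.

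TTR was tested against UT by the quasi-likelihood test of edgeR 4.0.16 (R 4.3.3), two-sided and without covariates, after filterByExpr at a minimum count of 10 and TMM scaling, with Benjamini-Hochberg adjustment and a threshold of 0.05. Log2 CPM used a prior count of 2. SEs came from the fold and the F statistic. Ratios and correlations used exact permutation tests. Alternatives were RLE, upper quartile or no factors, DESeq2 1.42.0, limma-voom (limma 3.58.1), other filters, a replicate block and leaving out each library. Surrogate variables (sva 3.50.0), the likelihood ratio test, the first component, the promoter motifs and all alternatives for the correlations were added after seeing the data. The tests were tried on simulated counts. The 3 genes and the lists were chosen with earlier results of these data known. Named beside the members is the gene with the highest r to each, and the lists of contractile genes and cell type markers set by symbol were not used.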

Additional observations from a re-analysis of the deposited data

How the results depend on the processing

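Acta2 and Tagln kept a negative log2 difference under all 17 alternatives, from -0.54 to -0.12 and from -0.47 to -0.07, the extremes coming from leaving out 1 library. Acta2 passed the threshold only with 2 surrogate variables (-0.36; adjusted p from 0.00389 to 1.00 over the alternatives), and the cause was not tested. Vim ran from -0.086 to 0.018 over the libraries left out, and its sign turned without UT replicate 2 (0.018) and without TTR replicate 3 (0.0076). The ratio differences kept their sign under all 8 alternatives each, from -0.52 to -0.15 for Acta2 to Vim, -0.44 to -0.09 for Tagln to Vim and -0.13 to -0.0032 for Acta2 to Tagln. Among these, the replicate block gives the same mean difference by construction, and the prior count hardly moves it. Only leaving out a library could change the sign. The correlation of Acta2 with Tagln stayed between 0.916 and 0.983. That of Acta2 with Vim ran from -0.054 (without TTR replicate 3) to 0.501, and that of Tagln with Vim from -0.019 (without TTR replicate 3) to 0.579, with -0.013 without UT replicate 3 and -0.014 with library totals alone.

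The number of genes called, 1 in the main test, was 37 with DESeq2, 36 without a low count filter, 3 with a filter of 1 CPM, 27 and 155 with 1 and 2 surrogate variables, 44 with the likelihood ratio test, and 1 to 9 with 1 library left out (2 without UT replicate 2, 9 without TTR replicate 1). Blocked on the replicate number, edgeR called 0, with 223 genes at an unadjusted p under 0.05, and the members stood at -0.33 (SE 0.25) for Acta2, -0.27 (SE 0.24) for Tagln and -0.02 (SE 0.13) for Vim, each with an adjusted p of 1.00 by edgeR; the ratio differences within numbers were -0.31, -0.24 and -0.07 (exact sign permutation p = 0.5, 0.5 and 0.75). Deviations of same-numbered libraries correlated at -0.375, 0.435 and -0.401 over the tested genes. Deviations sum to 0 within a group, so these values cannot settle whether the numbers pair the libraries. The labels do not say what a number marks. Counting error was under 1% for these 3 genes, if reads are independent, against a coefficient of variation within groups of 7.09% or more. Lower depth was not tested.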
